A study of Mus musculus with 2 samples.

Results

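The genes described here are 8 enzymes of folate and methyl metabolism and glycine cleavage, *Mthfd1l*, *Mthfd2l*, *Gldc*, *Mthfd1*, *Shmt1*, *Tyms*, *Aldh1l1* and *Mtr*. They were chosen by name, with earlier results of these data known, from 21887 protein-coding genes of the RefSeq gene table (GRCm38.p6). Every ATF4 peak that touched a gene or its 10 kb flanks was collected. The peaks come from CUT&Tag, an assay in which an antibody brings a transposase to a chromatin protein so that the DNA around it is tagged and sequenced. The neurons were cultured from cortex and hippocampus of late embryonic C57BL/6 mice, and the sources name no treatment for these cells. 1 library was made with an antibody to ATF4 and 1 with IgG, each from 100000 cells that the labels call primarily neurons. The authors' peak list of the ATF4 library was analysed and the IgG library was not used here, so no value has a replicate error, and whether the fold enrichments were computed over IgG is not given in the sources used here. A list of peaks holds no expression values, so markers of the cell type could not be read from it.

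Folate carries one-carbon (1C) units between serine, glycine, formate, purines, thymidylate and methionine. The pathway runs in parallel in mitochondria and in the cytosol. In mitochondria serine and glycine are oxidised to formate, which leaves for the cytosol and is used there for nucleotide and methyl group synthesis. ATF4 is the transcription factor of the integrated stress response and is known for binding at genes of amino acid synthesis and mitochondrial 1C metabolism. Of the 8 enzymes, MTHFD1L, MTHFD2L and GLDC work in mitochondria. MTHFD1, SHMT1, TYMS, ALDH1L1 and MTR work in the cytosol, TYMS also in the nucleus.

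The data gave 4 peaks at 3 of the 8 genes. *Mthfd1l* held 2, *Mthfd2l* held 1 and *Aldh1l1* held 1, and all 4 summits lay inside the gene. *Gldc*, *Mthfd1*, *Shmt1*, *Tyms* and *Mtr* had no peak in the gene or its flanks. The median number of peaks per gene was 0 among the 8 and among all protein-coding genes. Of all protein-coding genes, 24.8% had a peak by the same rule, beside 37.5% of these 8 (3 genes, exact Clopper-Pearson 95% interval 8.52% to 75.5%). When only peaks were counted whose -log10 q reached 5, the share was 6.25% of all protein-coding genes and 25.0% of the 8 genes (2 genes, interval 3.19% to 65.1%). *Mthfd1l* and *Mthfd2l*, both mitochondrial, were those 2 genes. The intervals treat genes as draws and cover neither replicate error nor the choice of genes.

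All 8 genes have an entry in the RefSeq promoter table (GRCm38.p6), and the mitochondrial *Gldc* was searched but is not printed. The 250 bases before the annotated start site are given for *Mthfd1l*, *Mthfd2l*, the cytosolic *Mthfd1* and the mitochondrial *Mthfd2*. They are printed 5′ to 3′ on the strand of the gene, with the letters TGATG, the core of the amino acid response element that ATF4 binds, and TGACGT, part of a cAMP response element, in capitals on either strand (CATCA and ACGTCA are their reverse complements). *Mthfd1l* (chr10:3972825-3973074, plus strand), *Mthfd2l* (chr5:90930946-90931195, plus strand) and *Mthfd1* (chr12:76254982-76255231, plus strand) are genes of this set. *Mthfd2* (chr6:83317605-83317854, minus strand) is a mitochondrial paralog with a peak at the start site of this table.
Mthfd1l: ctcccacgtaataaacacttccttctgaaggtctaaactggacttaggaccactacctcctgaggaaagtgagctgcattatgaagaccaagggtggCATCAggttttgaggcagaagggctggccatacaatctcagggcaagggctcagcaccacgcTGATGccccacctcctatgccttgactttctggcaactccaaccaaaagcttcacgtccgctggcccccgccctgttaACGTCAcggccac
Mthfd2l: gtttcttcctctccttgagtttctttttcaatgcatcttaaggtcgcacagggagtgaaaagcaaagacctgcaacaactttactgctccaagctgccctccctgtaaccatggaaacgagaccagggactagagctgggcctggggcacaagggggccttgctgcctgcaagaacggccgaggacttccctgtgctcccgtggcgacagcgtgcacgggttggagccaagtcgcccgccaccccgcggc
Mthfd1: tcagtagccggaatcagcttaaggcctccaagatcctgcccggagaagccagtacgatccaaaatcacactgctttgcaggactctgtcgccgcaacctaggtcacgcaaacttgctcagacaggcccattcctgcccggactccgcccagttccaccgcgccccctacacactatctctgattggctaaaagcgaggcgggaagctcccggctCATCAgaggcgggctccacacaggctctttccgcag
Mthfd2: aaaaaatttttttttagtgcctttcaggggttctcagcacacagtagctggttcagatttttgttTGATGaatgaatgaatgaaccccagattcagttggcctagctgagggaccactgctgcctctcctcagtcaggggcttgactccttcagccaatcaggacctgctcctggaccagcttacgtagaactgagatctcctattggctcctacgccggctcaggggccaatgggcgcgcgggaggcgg

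The search covered the whole table window, 250 bases before to 50 after the start. *Mthfd1l* held TGATG at 2 places, from 153 to 149 and from 91 to 87 bases before the start, and TGACGT from 13 to 8 bases before it. TGATG stood once in the windows of *Mthfd1* (36 to 32 bases before the start) and *Gldc* (185 to 181), neither of which had a peak, and in none of the other 5 genes. The short core is common, since 39.3% of 32851 promoter windows of the same length held it on either strand, and 7.51% held TGACGT. The longer TGATGNAA, whose first letters are TGATG, occurred in 3.97% of all windows and in none of the 8. The palindrome TGACGTCA, which contains TGACGT, occurred in 1.79% and in none of the 8. TGACGT was added to the search after the sequences had been seen. No base of a called peak lay inside the promoter window of any of the 8 genes, and the sequence under the peaks themselves was not searched.

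*Mthfd1l* encodes the mitochondrial 10-formyl-tetrahydrofolate synthetase, the step that releases formate. The gene spans 194 kb on chromosome 10 (chr10:3972892-4167081), and both summits lay in its first 1 kb. The taller one (chr10:3973551-3974071, 521 bp) had a fold enrichment of 12.2 over the peak caller's estimated background, a -log10 p of 30.6 and a -log10 q of 25.6 (q = 2.80e-26). By q-value it ranked 99 of 7873 peaks, so 1.26% of the list was as strong or stronger. The smaller one (chr10:3973142-3973373, 232 bp) had a fold enrichment of 6.08, a -log10 p of 10.6 and a -log10 q of 6.44 (q = 3.65e-07), at rank 851. The peaks were 177 bp apart and together covered a stretch of 930 bp.

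The number of DNA fragments stacked at a summit was solved from the fold enrichment and the p-value. The taller *Mthfd1l* peak held 33 fragments (exact Poisson 95% interval 22.7 to 46.3) over an expected background of 1.79, and the smaller held 15 (8.40 to 24.7) over 1.63. The intervals overlap between 22.7 and 24.7 fragments. The expected background around both peaks was high, 20.9 and 19.1 times the lowest value in the list (0.0855 fragments), and above that of 98.6% and 98.4% of all peaks. Such a value was not particular to *Mthfd1l*. At the taller *Mthfd2* peak described below the background was above that of 97.5% of all peaks. At the *Shmt2* and *Aldh1l2* peaks inside their genes it was above that of 98.2%.

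Both *Mthfd1l* summits lay downstream of the annotated start site, at 174 and 764 bp. The first peak began 18 bp beyond the end of the promoter window printed in part above. Among the 439 peaks of the whole list whose -log10 q reached 5 and whose summit lay within 1 kb of a protein-coding start site, 37.6% were downstream, and the middle 50% lay between 182 bp before and 80 bp after the start. Of these 439 peaks, 3 (0.683%) lay farther downstream than the taller *Mthfd1l* summit. Among all 1297 peaks within 1 kb of a start site, of any q-value, 45.3% were downstream and 32 (2.47%) lay farther downstream than that summit. Only summits up to 1 kb from a start site were counted, so few positions beyond 764 bp were left. Both shares are small in part through that limit. The gene table begins *Mthfd1l* 183 bp before the start site of the promoter table, so another annotated transcript may start earlier. The nearest other gene, *Plekhg1*, ended 5.95 kb from the smaller summit and 6.54 kb from the taller, and no further gene lay within 10 kb. Of the 17492 protein-coding genes with a start site in the table, 2.82% had a summit of this q-value within 1 kb of it, and *Mthfd1l* was the only one of the 8 (1 of 8).

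**Figure D1:**
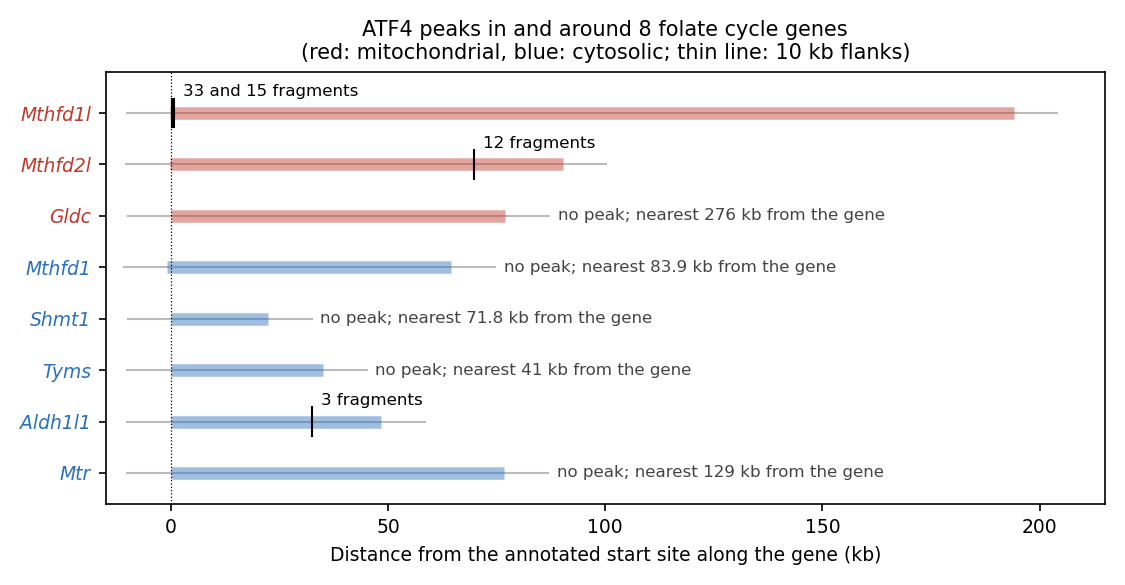
Map of the 8 genes aligned at the annotated start site (x axis, distance along the gene in kb), with gene bodies as thick bars, 10 kb flanks as thin lines and peak summits as black ticks labelled with their fragments. The 2 *Mthfd1l* ticks merge at the start of the gene, the *Mthfd2l* and *Aldh1l1* ticks lie far inside, and the other 5 genes carry none, with the gap to the nearest peak given.

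*Mthfd2l* encodes a mitochondrial methylene-tetrahydrofolate dehydrogenase and cyclohydrolase. It spans 90.5 kb on chromosome 5 (chr5:90930873-91021368) and held 1 peak (chr5:91000894-91001083) with a fold enrichment of 9.92, a -log10 p of 16.5 and a -log10 q of 11.9 (q = 1.38e-12), at rank 290. Its summit lay 69.7 kb downstream of the start site, at 77.4% of the gene's length and 20.4 kb from the far end. No other gene lay within 10 kb of this summit. The peak is thus inside the gene body and not at a start site of the table.

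The *Mthfd2l* peak held 12 fragments (6.20 to 21.0), an interval that overlaps that of the smaller *Mthfd1l* peak and not that of the taller. Its fold enrichment was nevertheless above that of the smaller *Mthfd1l* peak, because the expected background was 0.311 fragments in place of 1.63. The order of these peaks thus depended on the quantity. By fold enrichment and by q-value it was the taller *Mthfd1l* peak, *Mthfd2l*, the smaller *Mthfd1l* peak and *Aldh1l1*, and by fragments the middle 2 changed places. The *Mthfd2l* peak was 190 bp wide, and of the 310 peaks with a like number of fragments (0.8 to 1.25 times), 11.0% were narrower and the median width was 342 bp. The smaller *Mthfd1l* peak was narrow as well for its height (15.6% of 224 like peaks were narrower, median 393 bp), while the taller one stood at the median of its 52 like peaks (50.0% narrower, median 514 bp).

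*Aldh1l1* encodes the cytosolic 10-formyl-tetrahydrofolate dehydrogenase, which removes formyl groups as carbon dioxide and makes NADPH, and is widely used as a marker of astrocytes. It spans 48.4 kb (chr6:90550768-90599171), and its peak (chr6:90583265-90583507, 243 bp) was the weakest of the 4, with a fold enrichment of 3.62, a -log10 p of 5.35 and a -log10 q of 2.35 (q = 0.0045), at rank 5789. It rested on 3 fragments (0.619 to 8.77) over a background of 0.104, and 3 is the smallest number that any peak of the list had. The same height was found in 3224 peaks (41.0%). Its summit lay 32.5 kb downstream of the start site and 15.9 kb from the far end, with no other gene within 10 kb. The peak did not reach a -log10 q of 5, and without it no cytosolic gene of the set had a peak.

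**Figure D2:**
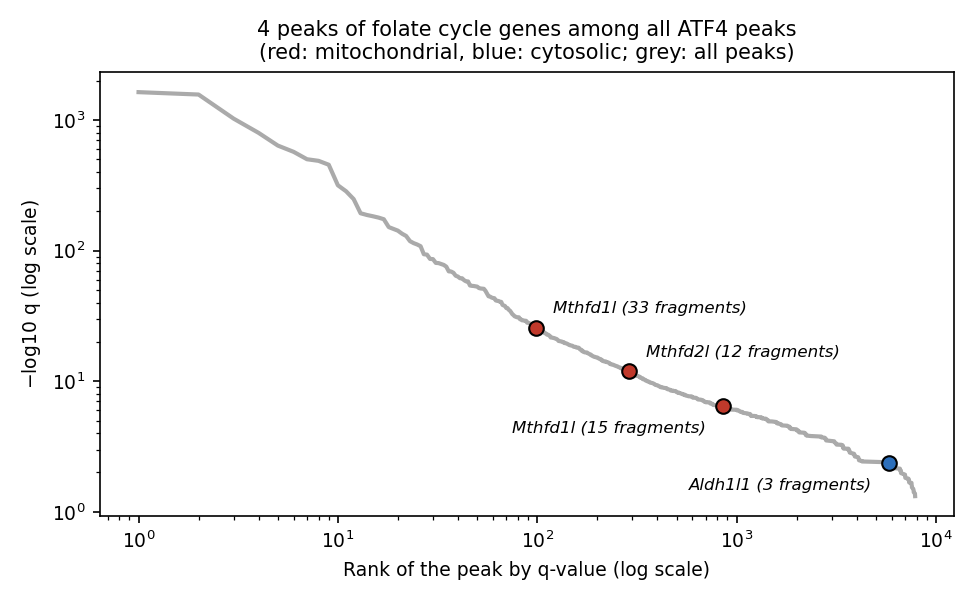
-log10 q of all 7873 peaks (grey line) against their rank by q-value, both on log scales, with the 4 peaks of the 8 genes as points. *Mthfd1l* (ranks 99 and 851) and *Mthfd2l* (rank 290), in red, lie in the upper part of the list, and *Aldh1l1* (rank 5789), in blue, lies in its lower part.

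The 5 genes without a peak differed in how far away the nearest peak was, and none was just outside the 10 kb limit. *Tyms*, thymidylate synthase, which makes dTMP for DNA synthesis (chr5:30038546-30073645), had its nearest peak 41.0 kb from the gene, with 3 fragments and q = 0.0151. *Shmt1*, the cytosolic serine hydroxymethyltransferase (chr11:60788897-60811265), had the nearest at 71.8 kb (3 fragments, q = 0.0211). *Mthfd1*, the cytosolic enzyme that joins the synthetase, cyclohydrolase and dehydrogenase activities in 1 protein (chr12:76254406-76319820), had it at 83.9 kb (4 fragments, q = 0.00222).

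*Mtr*, the B12-dependent methionine synthase that passes the methyl group of folate to homocysteine (chr13:12181331-12258199), had no peak within 100 kb, and the nearest was at 129 kb (4 fragments, q = 0.00329). *Gldc*, the glycine decarboxylase of the mitochondrial glycine cleavage system (chr19:30098441-30175441), lay farthest from any peak, at 276 kb (3 fragments, q = 0.0289). All 5 of these nearest peaks held 3 or 4 fragments. Since no peak of the list held fewer than 3, a site with a smaller stack was not detectable at this depth. The p-value also depends on the expected background, so a larger stack could be missed where the background was high. The absence of a peak therefore does not show that ATF4 was absent.

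Compared by compartment, 2 of the 3 mitochondrial genes had a peak (66.7%, interval 9.43% to 99.2%) and 1 of the 5 cytosolic genes did (20.0%, 0.505% to 71.6%), beside 24.8% of all protein-coding genes. With the -log10 q set to 5 or more, the counts were 2 of 3 (interval 9.43% to 99.2%) and 0 of 5 (up to 52.2%), beside 6.25% of all protein-coding genes. Longer genes had a peak more often. Any peak was present in 24.5% of protein-coding genes of 0.5 to 2 times the length of *Shmt1*. For the longer *Mthfd1l* the share was 44.7%. The mitochondrial genes had a median length of 90.5 kb, against 48.4 kb for the cytosolic ones. Per 100 kb of gene and flanks, the mitochondrial windows held 0.711 peaks (3 peaks in 421.7 kb, exact Poisson 95% interval 0.147 to 2.08) and the cytosolic windows 0.287 (1 peak in 348.2 kb, 0.00727 to 1.60). The windows of all protein-coding genes held 0.463 per 100 kb, counting a peak once for each gene it touched. All of these intervals overlap, and with 1 library and 8 genes the difference between compartments was not tested.

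Length was also set against each gene by itself, among protein-coding genes of 0.5 to 2 times its length. A peak whose -log10 q reached 5 was present in 8.62% of the 2146 genes as long as *Mthfd1l* and in 7.26% of the 4256 genes as long as *Mthfd2l*. Any peak was present in 44.7% and 34.0% of them. For *Aldh1l1*, 28.4% of 6333 such genes had a peak of any height. Among the genes without a peak, the share of like genes that had any was 31.9% for *Gldc*, 32.0% for *Mtr*, 30.6% for *Mthfd1*, 26.3% for *Tyms* and 24.5% for *Shmt1*, so most genes of their length had none either.

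Several of these enzymes have a paralog in the other compartment, which allows pairs to be set side by side. The mitochondrial *Shmt2*, *Mthfd2* and *Aldh1l2* are genes whose ATF4 peaks in these neurons the study itself describes, so that they have a peak is no independent evidence. *Shmt2*, the mitochondrial counterpart of *Shmt1*, had a peak (chr10:127521740-127522446) with 20 fragments (12.2 to 30.9) and its summit 110 bp downstream of the start site. A pair of other peaks (34 and 14 fragments) had summits 4.36 and 5.77 kb outside *Shmt2*. *Shmt1* had none nearer than 71.8 kb. *Aldh1l2* had a peak (chr10:83533194-83534207) with 20 fragments (12.2 to 30.9) and its summit 126 bp inside an end of the gene. Its interval does not overlap that of the 3-fragment *Aldh1l1* peak, which lay far inside its gene.

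Among the mitochondrial relatives of *Mthfd1*, *Mthfd2*, a dehydrogenase and cyclohydrolase like *Mthfd2l*, had a peak (chr6:83316940-83317654) with a fold enrichment of 15.0 and 29 fragments (19.4 to 41.6) at rank 92. Measured from the start site of the promoter table, its summit lay 388 bp downstream, and the peak covered the last 50 of the *Mthfd2* bases printed above. The gene table begins *Mthfd2* farther upstream, so that the same summit lay 8.79 kb inside the gene there, at 43.3% of its length. A second, weak *Mthfd2* peak (chr6:83326031-83326282, 3 fragments, q = 0.0151) had its summit 146 bp outside that end of the gene and inside *Mob1a*. The taller *Mthfd1l* peak and the *Mthfd2* peak were close in fragments (33 and 29, with overlapping intervals), and the 2 cannot be ranked at this depth. *Mthfd2l*, by contrast, had no peak at its start site.

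**Figure D3:**
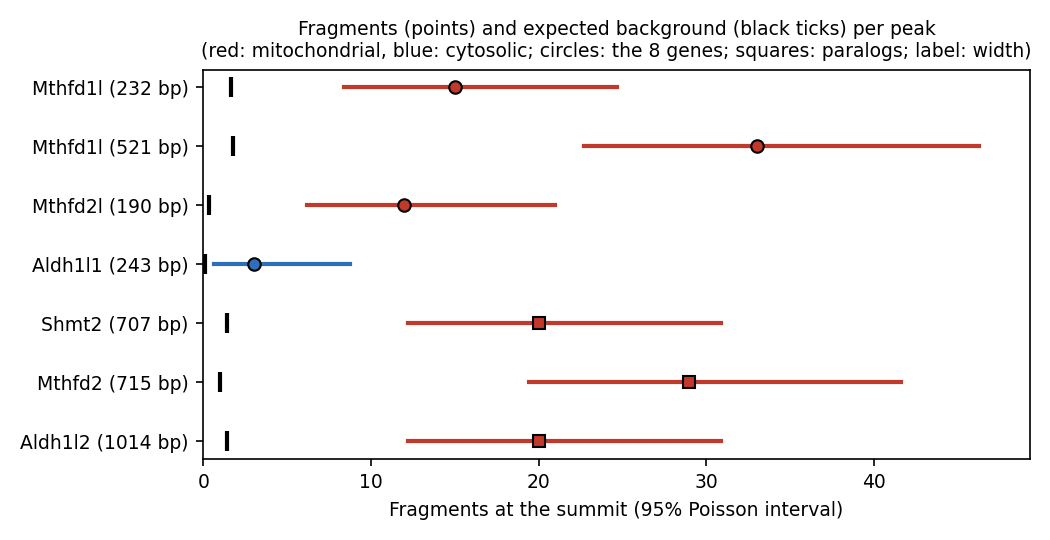
Fragments at the summit (x axis, points with exact Poisson 95% intervals, counting error only) and expected background (black ticks) for the 4 peaks of the 8 genes (circles) and the peaks inside the mitochondrial paralogs (squares). The 33 fragments of the wider *Mthfd1l* peak overlap those of *Mthfd2* (29), and the 3 fragments of *Aldh1l1* stand below the 6 mitochondrial peaks plotted, with an interval that reaches those of *Mthfd2l* and the smaller *Mthfd1l* peak.

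The surrounding pathway was read from a hand-written list of 10 other mitochondrial genes of folate, methyl and glycine cleavage metabolism and 5 genes of folate uptake or the lysosome. Other cytosolic enzymes were not counted here, so the list allows no comparison of compartments. Of the 15 genes, 6 had a peak by the same rule (40.0%, interval 16.3% to 67.7%, against 24.8% of all protein-coding genes), and 4 had one whose -log10 q reached 5 (26.7%, against 6.25%). The 4 were *Shmt2*, *Mthfd2*, *Aldh1l2* and *Gcsh*, all mitochondrial, and the first 3 are the paralogs whose peaks the study describes. These 3 are also among the 6 genes with any peak, and of the other list genes *Gcsh* alone reached a -log10 q of 5. The excess of the list over all protein-coding genes thus rests on the paralogs and is no independent evidence about the pathway. Of the uptake or lysosome genes 1 of 5 had a peak, and its -log10 q was under 5.

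*Gcsh* encodes the carrier protein of the glycine cleavage system, in which GLDC takes the first step. The *Gcsh* peak (chr8:116978731-116979083, 7 fragments, q = 4.85e-07) lay 2.88 kb from the gene, with its summit inside the neighbouring *1700030J22Rik*. *Amt* and *Dld*, which encode the other 2 proteins of that system, had no peak.

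When the 3 mitochondrial genes of the set were joined with the mitochondrial list and *Shmt2*, *Mthfd2* and *Aldh1l2* were left out, 4 of 10 genes (40.0%, interval 12.2% to 73.8%) had a peak, and 3 of 10 (30.0%, 6.67% to 65.2%) had one whose -log10 q reached 5, beside 24.8% and 6.25% of all protein-coding genes. Those 3 were *Mthfd1l*, *Mthfd2l* and *Gcsh*. *Mthfd1l* and *Mthfd2l* had already been counted above, so the list added *Gcsh* alone, with a summit 3.02 kb outside the gene. The joined share is thus no separate evidence from the wider pathway. The rate of the joined set was 0.645 peaks per 100 kb of gene and flanks (0.209 to 1.50), an interval that holds the 0.463 of all protein-coding genes.

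**Figure D4:**
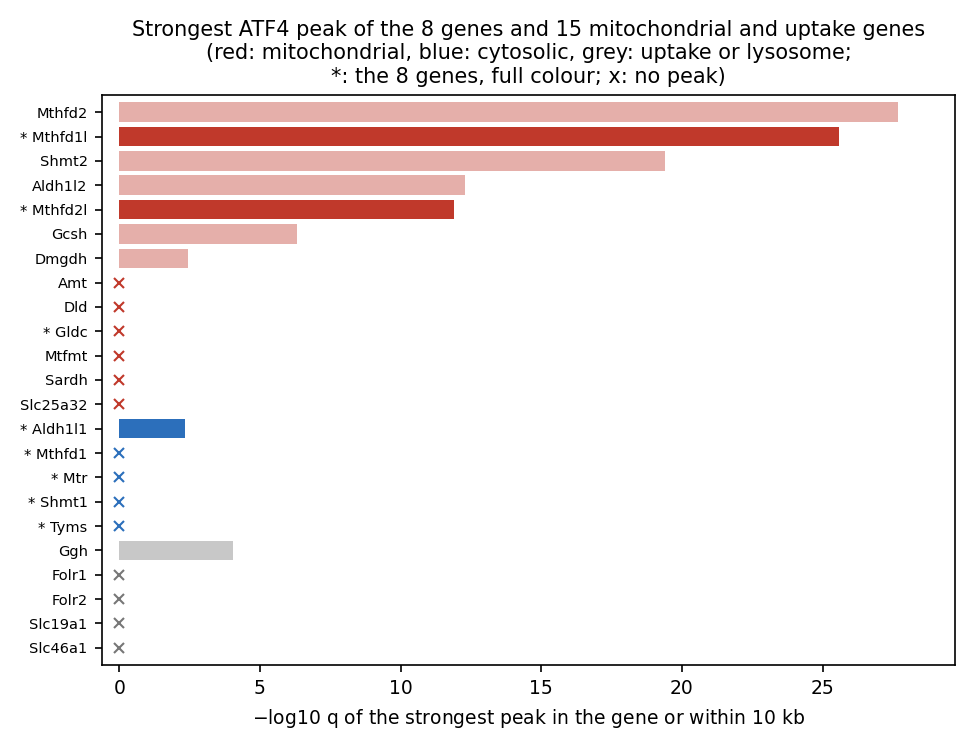
-log10 q (x axis) of the strongest peak in the gene or within 10 kb for the 8 genes (asterisks, full colour) and the 15 genes of the list, with a cross where there was no peak. *Mthfd2* and *Mthfd1l* have the longest bars, *Aldh1l1* is the only cytosolic gene of the 8 with a bar, and the bar of *Shmt2* (19.4) is a peak inside the neighbouring gene *Ndufa4l2*.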

How the data were processed

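ATF4 CUT&Tag of mouse primary neurons was analysed from the deposited peak list of 1 library. For each of 7873 peaks the authors deposited the position and summit, the fold enrichment over background as a ratio, p-values and q-values as -log10, and a score, which was 10 times the -log10 q without its decimals. The submitters' processing notes name FastQC, BWA, MACS2 2.1.2, deepTools and mm10, without their settings. The peak threshold and the use of the IgG library in calling are not given in the sources used here. Depth per library is unknown.

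Peaks were assigned to genes of the RefSeq table (GRCm38.p6, the mm10 build) by at least 1 bp of overlap with the gene and 10 kb at each end. Ranks are by q-value over all peaks. Start sites and strands came from the RefSeq promoter table, so exons and introns were not told apart. Fragments were solved from the fold enrichment, taken as fragments plus 1 over background plus 1, and the p-value, taken as a Poisson upper tail, as MACS2 computes them. The -log10 p was met within 0.001 in 7863 of 7873 peaks and in all 4 of the 8 genes. If single reads were called, the numbers are reads. Intervals (95%) reflect counting error alone, as PCR duplicates are not separate molecules. No test was run, as there is 1 library and genes are not replicates. Genes and lists were chosen with earlier results of these data known. Some cytosolic genes of the list are not reported here, so its whole cytosolic part was left out. All 8 genes are named, with genes sharing a peak, paralogs, and list genes whose peak reached a -log10 q of 5. Alternatives were other thresholds, flanks, summits, nearest gene ends and motif letters. Sequences under peaks were not used here. Scripts were tested on simulated data and ran in Python 3.11.15 with matplotlib 3.10.9, pandas 2.3.3, scipy 1.17.1 and numpy 2.4.6.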

Additional observations from a re-analysis of the deposited data

How the results depend on the processing

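The 3 genes with a peak, the 4 peaks and the 2 mitochondrial genes stayed within 1.5 times their value under all 8 alternatives (flanks of 1 kb, 3 kb or none, a summit in the window, the nearest protein-coding gene end, a -log10 q of at least 5, a fold enrichment above the median, at least 6 fragments), with 2 or 3 genes and 3 or 4 peaks. The cytosolic count rested on the *Aldh1l1* peak. It was 0 in place of 1, and the rate 0 in place of 0.287 per 100 kb, with a -log10 q of at least 5, with a fold enrichment above the median and with at least 6 fragments, since that peak held 3 fragments. The 6 list genes with a peak became 4 or 5 under all alternatives but the summit in the window, which left 6. Of the 8 genes, 0 held TGATGNAA, 3 held TGATG and 1 held TGACGT, letters that were added after the data were seen. The motif was searched in promoter windows and not in peaks, whose sequence was not used here. No paired analysis was possible because each antibody has 1 library.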
